A study of Mus musculus with 30 samples.

Results

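Heat shock proteins and J-domain proteins were followed in hippocampus RNA of male BALB/c mice fed methylmercury (MeHg), with or without selenium. Members were the genes of the deposited table whose symbol begins with Hspa, Hspb, Hspd, Hspe, Hsph or Hsp90, or with Dnaja, Dnajb or Dnajc and a number, and whose normalized counts summed to at least 300 over the 30 libraries. Of the 72 genes with such a symbol, 62 met the sum and are described here, out of 21412 genes in the table. They are 3 HSP90 genes, 11 HSP70 genes, 3 genes of the HSP110 branch, 2 genes of the mitochondrial HSP60 and HSP10 pair, 4 small heat shock proteins and 4 DNAJA, 10 DNAJB and 25 DNAJC genes. The member with the lowest sum was Dnajb13 at 357 normalized counts, and the gene just below the threshold was Dnajb3 at 133. The feed of Ctr mice had no added MeHg, that of LD mice held 0.28 mg MeHg per kg and that of HD mice 5 mg per kg, each for 11 weeks. By the design text Se_Ctr, Se_LD and Se_HD mice received selenium alone, with the low dose and with the high dose of mercury, and the series title names the selenium as selenium-methionine. Each of the 6 groups held 5 mice with 1 library each, so the replicates were separate animals, and all were inbred males of a single strain. For these 3 groups the amount of selenium, the mercury content of the feed and the length of exposure are not given in the sources used here.

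Molecular chaperones bind unfolded stretches of other proteins and keep them from clumping. HSP70 proteins do so in cycles of ATP hydrolysis that J-domain proteins start and that HSP110 proteins reset by exchanging the nucleotide, and HSP90 proteins take over clients such as kinases and steroid receptors at a later stage of folding. Small heat shock proteins hold unfolded clients without using ATP. Under heat, oxidants or metals that attack thiol groups, the transcription factor HSF1 binds heat shock elements, which are inverted repeats of the letters GAA, while unfolded protein in the endoplasmic reticulum (ER) acts through the ER stress response element (ERSE), in which CCAAT and CCACG stand a fixed distance apart. In brain, small heat shock proteins are found in astrocytes and vessel walls, and many J-domain proteins serve synapses.

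These elements were looked up in RefSeq promoter windows (build GRCm38.p6, from 250 bases before to 50 bases after each start), which were found for 51 of the 62 members. The paired element GAANNTTC or TTCNNGAA, on either strand, was present in windows of 14 members and in 15.1% of the 32851 windows of all genes. Here and below a member counts if any of its windows held the element, and these 51 members have 68 windows. The shares over all genes are shares of windows, so the 2 are not like measures. A run of 3 such repeats, GAANNTTCNNGAA or TTCNNGAANNTTC, was present in windows of 4 members, Dnajb6, Hspd1, Hspe1 and Hsph1, and in 0.603% of all windows. Hspd1 and Hspe1 share the same stretch, read on opposite strands. None of these 4 was called in any comparison below, where between 0.73% and 5.09% of all genes were called. The ERSE, CCAAT followed by 9 bases of any kind and CCACG, was present in windows of 3 members (Hspa5, Hsp90b1 and Dnajc3) and in 0.119% of all windows, again on either strand. The 250 bases before the start are shown for 3 small heat shock proteins and Dnajc27, which were called in HD against Ctr mice, and for the 3 members with an ERSE, with each element in capitals and everything else in lower case. For Hspb6, which has 2 listed starts, the window with the element is shown.
Hspb1: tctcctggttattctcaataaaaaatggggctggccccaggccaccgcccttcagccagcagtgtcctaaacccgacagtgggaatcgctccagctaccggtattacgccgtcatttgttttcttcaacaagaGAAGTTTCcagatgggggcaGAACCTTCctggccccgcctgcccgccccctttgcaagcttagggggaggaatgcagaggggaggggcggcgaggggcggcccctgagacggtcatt
Hspb6: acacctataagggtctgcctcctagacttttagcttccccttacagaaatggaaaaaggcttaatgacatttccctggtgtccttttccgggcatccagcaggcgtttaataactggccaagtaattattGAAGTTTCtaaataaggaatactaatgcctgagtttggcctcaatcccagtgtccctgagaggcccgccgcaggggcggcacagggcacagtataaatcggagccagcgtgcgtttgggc
Hspb8: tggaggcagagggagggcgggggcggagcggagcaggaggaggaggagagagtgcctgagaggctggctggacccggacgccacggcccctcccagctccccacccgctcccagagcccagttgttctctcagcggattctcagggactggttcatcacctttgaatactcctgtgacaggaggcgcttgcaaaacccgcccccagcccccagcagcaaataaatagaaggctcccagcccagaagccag
Dnajc27: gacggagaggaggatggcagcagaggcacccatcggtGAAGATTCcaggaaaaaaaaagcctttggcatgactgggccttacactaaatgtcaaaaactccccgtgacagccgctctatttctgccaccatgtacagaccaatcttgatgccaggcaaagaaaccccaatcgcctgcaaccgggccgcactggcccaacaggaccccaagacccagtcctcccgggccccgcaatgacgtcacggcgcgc
Hspa5: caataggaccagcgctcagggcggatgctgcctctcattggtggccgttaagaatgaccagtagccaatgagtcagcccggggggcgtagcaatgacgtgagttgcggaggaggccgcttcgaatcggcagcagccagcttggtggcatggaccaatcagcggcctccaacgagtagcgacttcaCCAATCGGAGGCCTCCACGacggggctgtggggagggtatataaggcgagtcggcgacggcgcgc
Hsp90b1: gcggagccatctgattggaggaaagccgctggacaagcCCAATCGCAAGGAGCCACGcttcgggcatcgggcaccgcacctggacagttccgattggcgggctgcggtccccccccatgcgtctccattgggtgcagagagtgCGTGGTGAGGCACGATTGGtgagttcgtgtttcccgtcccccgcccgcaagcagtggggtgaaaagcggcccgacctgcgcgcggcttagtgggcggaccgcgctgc
Dnajc3: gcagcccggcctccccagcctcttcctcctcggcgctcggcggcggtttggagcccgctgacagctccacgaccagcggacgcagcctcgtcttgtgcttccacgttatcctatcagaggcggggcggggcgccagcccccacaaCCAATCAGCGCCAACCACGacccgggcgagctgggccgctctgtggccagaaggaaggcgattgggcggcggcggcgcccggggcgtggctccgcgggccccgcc
These windows lie on GRCm38.p6 at chr5:135887669-135887918 on the plus strand for Hspb1, chr7:30553051-30553300 on the plus strand for Hspb6 and chr5:116422865-116423114 on the minus strand for Hspb8, and at chr12:4082324-4082573 on the plus strand for Dnajc27. Those of the ER genes lie at chr2:34771840-34772089 on the plus strand for Hspa5, chr10:86705445-86705694 on the minus strand for Hsp90b1 and chr14:118937682-118937931 on the plus strand for Dnajc3. Hspb1 held 2 paired elements and Hspb6 and Dnajc27 held 1 each, whereas the shown stretch of Hspb8 held none and its only match began at base 3 after the start. Hsp90b1 held 2 ERSEs, 1 on each strand. A match of letters does not show that a factor binds there.

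The deposited values are read counts divided by a size factor for each library, called normalized counts here. Each library held between 5768208 and 11510521 reads on genes, and the members took between 0.727% and 0.977% of them. Whole-tissue RNA does not separate fewer cells of a type from less RNA per cell. Markers of other cell types moved with the groups. The summed level of 10 astrocyte markers was between 61231 and 94030.0 normalized counts in HD mice and between 50663 and 59990.0 in Ctr mice, and that of 12 microglia markers was between 3456 and 8063 in HD mice and between 2703 and 2949.8 in Ctr mice. All 12 microglia, 4 astrocyte and 4 of 5 ependymal markers rose in HD against Ctr mice, and 2 of 7 inhibitory neuron markers fell, while no endothelial, mural, oligodendrocyte, excitatory neuron or erythrocyte marker was called by limma. No marker of the 10 lists that was in the table was at 0 in all mice of a group. HD library 21 had the highest microglia and astrocyte sums and the lowest excitatory neuron and oligodendrocyte sums of all 30 libraries, and calls that were lost without it are named where they are given. The 7 choroid plexus markers summed to between 273 and 37371 normalized counts, with a median log2 fold change of 1.41 and no call in HD against Ctr mice.

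Levels between genes were compared as the mean normalized count over the 30 mice per kilobase of exon. The HSP90 genes were the most abundant class. Hsp90ab1, the constitutive cytosolic HSP90, stood at 6276 per kb, Hsp90aa1, its inducible counterpart, at 1719, and Hsp90b1, the HSP90 of the ER, at 815. Next came Hspa5, the HSP70 of the ER also called BiP, at 671 and Hspa4, an HSP110-type exchange factor, at 553. Dnajc6 (auxilin), which strips clathrin from vesicles, stood at 549.8 and Dnajc5 (cysteine string protein), which guards synaptic vesicle proteins, at 504, both near Hspa4. The stress-inducible HSP70 genes were far lower, with Hspa1b at 23.6 and Hspa1a at 9.23 per kb. The small heat shock proteins lay between 10.8 for Hspb6 and 45.3 for Hspb8. Hspa8, the constitutive HSP70, has many processed copies in the genome, and Hspa1a and Hspa1b are nearly identical, so the levels of these genes depend on how reads shared between copies were counted and are uncertain. Exons of Hspa1a also overlap a gene on the other strand by 552 bases.

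**Figure D1:**
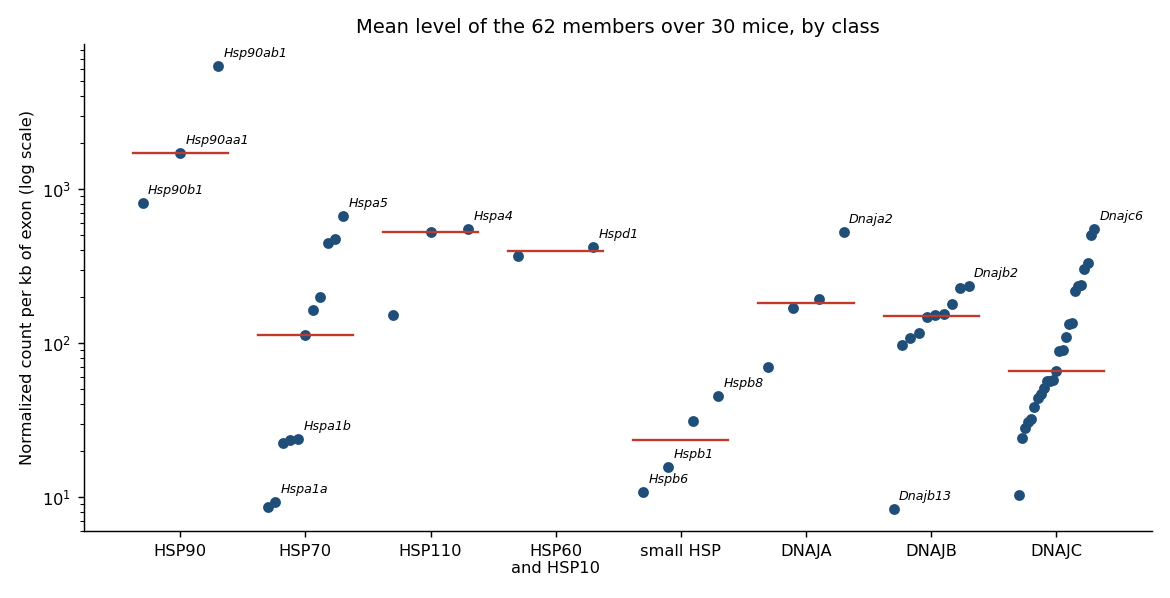
Mean normalized count per kb of exon over 30 mice (log scale) for each of the 62 members, in columns by class, with the class median as a red line. Hsp90ab1 is at 6276 per kb at the top, and the inducible Hspa1a at 9.23 and the small heat shock protein Hspb6 at 10.8 are near the bottom.

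The first comparison asked what the high dose did on the feed without selenium. Most members stayed close to the controls in HD mice, as 51 of 62 differed from Ctr by less than 0.25 on the log2 scale in either direction. The genes called were 3 of the 4 small heat shock proteins, Hspb1, Hspb6 and Hspb8, which rose, and Dnajc27, which fell. To be called, a gene needed an unadjusted limma p under 0.05 both in the F test of Ctr, LD and HD and in the contrast. This order of tests follows the study. That gave 4 of 62 members against 5.09% of all 20031 genes tested, a share near the background. No member passed an adjusted p of 0.05 over all genes by limma, against 0.13% of all genes, or by edgeR, while DESeq2 on the recovered reads passed 2, Hspb8 and Dnajc27, against 0.978% of all genes. The median log2 fold change was 0.041 over the members and 0.0067 over all genes.

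Hspb8 (ENSMUSG00000041548, NCBIM37 chr5:116858500-116872873, minus strand) encodes a small heat shock protein that works with Bag3 to send misfolded protein to autophagy. Its normalized counts were 58.0, 65.2, 61.3, 111 and 76.6 in the 5 Ctr mice, 111, 79.6, 74.3, 90.1 and 53.4 in LD mice and 115, 122, 160.1, 247 and 98.6 in HD mice. Every HD mouse lay above the Ctr median, and 4 of the 5 lay above every Ctr mouse. The mean rose from 74.3 ± 21.4 (SD, n = 5) to 149 ± 59.6 (SD, n = 5), a log2 fold change of 0.95 with an SE of 0.24 on the log2(normalized count + 1) scale (limma p = 0.000639, adjusted p = 0.133, two-sided exact permutation p = 0.0159). Leaving out HD library 21 gave 0.75, and Hspb8 was called in all 28 alternative settings tried.

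Hspb1 (ENSMUSG00000004951, NCBIM37 chr5:136363789-136365433, plus strand), also known as HSP27, is a small heat shock protein that guards actin and other filaments. The 5 Ctr mice held 27.8, 3.84, 10.2, 13.2 and 5.63 normalized counts and the 5 HD mice 11.3, 14.2, 22.9, 153 and 20.1. The fourth of these values in HD mice, 153, belongs to HD library 21, and the other 4 HD mice overlapped the Ctr mice. The log2 fold change was 1.32 with an SE of 0.58 (limma p = 0.0346, adjusted p = 0.54, exact permutation p = 0.143), and DESeq2 gave no p for it here or against LD mice. With HD library 21 left out it was 0.69 (limma adjusted p = 0.865), and the call was lost there and in 18 of 28 alternative settings in all.

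Hspb6 (ENSMUSG00000036854, NCBIM37 chr7:31337197-31340462, plus strand), also called HSP20, is best known from muscle. It stood at 30.2, 38.4, 13.6, 18.0 and 18.0 normalized counts in Ctr mice and 28.1, 46.7, 28.2, 153 and 20.1 in HD mice. HD library 21 again held the highest value, and 2 of 5 HD mice lay above every Ctr mouse. The log2 fold change was 0.87 with an SE of 0.40 (limma p = 0.0433, adjusted p = 0.575, exact permutation p = 0.135). With that library left out it was 0.40 (limma adjusted p = 0.881), and the call was lost there and in 8 of 28 alternative settings in all, Ctr library 25 left out among them. Exons of Hspb6 overlap those of genes on the other strand by up to 119 bases, and the strand setting of the counting is not given in the sources used here. The fourth small heat shock protein, Hspb11, which is a part of the transport machinery of cilia, had 58.8 ± 7.83 (SD, n = 5) in Ctr and 66.4 ± 10.7 (SD, n = 5) in HD mice and was not called.

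Gfap, an intermediate filament protein of astrocytes, was highest in the same HD library, at 7281, 12446, 5143, 32820.0 and 4080.2 normalized counts in the 5 HD mice against 1722, 1929.6, 1673, 1988 and 1430.0 in the Ctr mice. It rose by a log2 fold change of 2.39 (limma adjusted p = 0.00716). Its part, and that of the microglia and ependymal markers, in the values of the small heat shock proteins was not tested.

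Dnajc27 (ENSMUSG00000020657, NCBIM37 chr12:4082612-4110602, plus strand) encodes a small GTPase of the Ras type that carries a J domain. Its normalized counts were 1236, 1051, 1169, 1061 and 1019 in Ctr mice and 920.2, 862, 794, 679 and 1003 in HD mice. No HD mouse reached the lowest Ctr mouse. The mean was 1107 ± 91.7 (SD, n = 5) in Ctr and 852 ± 123 (SD, n = 5) in HD mice, and the gene fell by 0.39 on the log2 scale, with an SE of 0.10 (limma p = 0.000928, adjusted p = 0.147, exact permutation p = 0.00794, the smallest that 5 against 5 mice allow). Leaving out HD library 21, the lowest of the HD mice, it fell by 0.31, and it was called in all 28 alternative settings. Among the members 2 had no overlap between HD and Ctr mice, against 1.71% of all genes tested. The other was Dnaja3, a mitochondrial J-domain protein named here after its values were seen, which had 677 ± 39.2 (SD, n = 5) in Ctr and 633 ± 6.33 (SD, n = 5) in HD mice and was not called (limma adjusted p = 0.817).

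**Figure D2:**
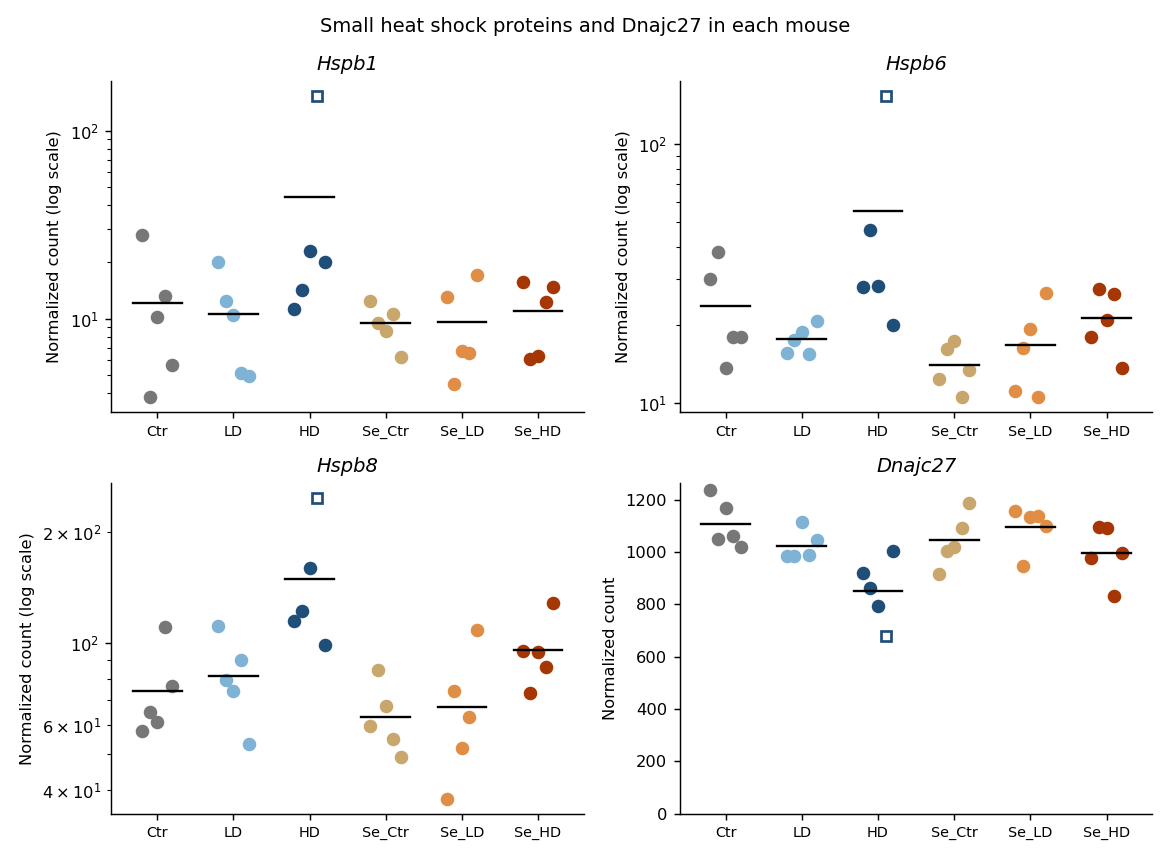
Normalized counts of Hspb1, Hspb6, Hspb8 (log scale) and Dnajc27 (linear scale) in each mouse of the 6 groups, with a black line at the group mean and HD library 21 as an open square. HD library 21 stands at 153 for both Hspb1 and Hspb6, far from the other HD mice, while for Dnajc27 all 5 HD mice lie below the 5 Ctr mice.

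Apart from these small heat shock proteins and Dnajc27, no member of any class was called in HD against Ctr mice. All 3 HSP90 genes had values above zero, with log2 fold changes from 0.078 for Hsp90aa1 to 0.19 for Hsp90b1, and none was called. Over the 28 alternative settings Hsp90aa1 lay between -0.041 and 0.18, Hsp90ab1 between 0.032 and 0.26 and Hsp90b1 between 0.092 and 0.29. Hsp90ab1 had 17202, 16867, 17743, 19536 and 17487 normalized counts in Ctr mice and 18307, 15458, 29405, 18794 and 20342 in HD mice, with HD library 15 the highest and the groups overlapping. In the HSP70 class the median was 0.060 over 11 genes. The inducible Hspa1a and Hspa1b had log2 fold changes of -0.36 (SE 0.46) and -0.27 (SE 0.38), and over the 28 alternative settings they lay between -0.72 and 0.031 and between -0.67 and 0.0024. The constitutive Hspa8 was at -0.11, the mitochondrial Hspa9 at 0.072, and Hspa2, known for its role in the testis, at 0.16. None of these 5 differed from Ctr by more than 1.5 times its SE.

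The HSP110 branch held Hsph1 at 0.04, Hspa4 at -0.057 and Hspa4l at -0.25 (SE 0.13), none of them called. The chaperonin pair of the mitochondrial matrix, Hspd1 and Hspe1, stood at 0.14 (SE 0.10) and 0.15 (SE 0.10), also without a call. The 2 genes sit head to head, and their exons overlap by 112 bases on opposite strands. Among J-domain proteins of the cytosol, Dnaja1 was at -0.038 and the heat-inducible Dnajb1 at -0.081. Dnajb2 and Dnajb6, which keep polyglutamine proteins soluble, were at 0.094 and 0.017, and Dnajb5 was at 0.019. The synaptic Dnajc5 and Dnajc6 were at -0.019 and -0.15, with SEs of 0.088 and 0.10.

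**Figure D3:**
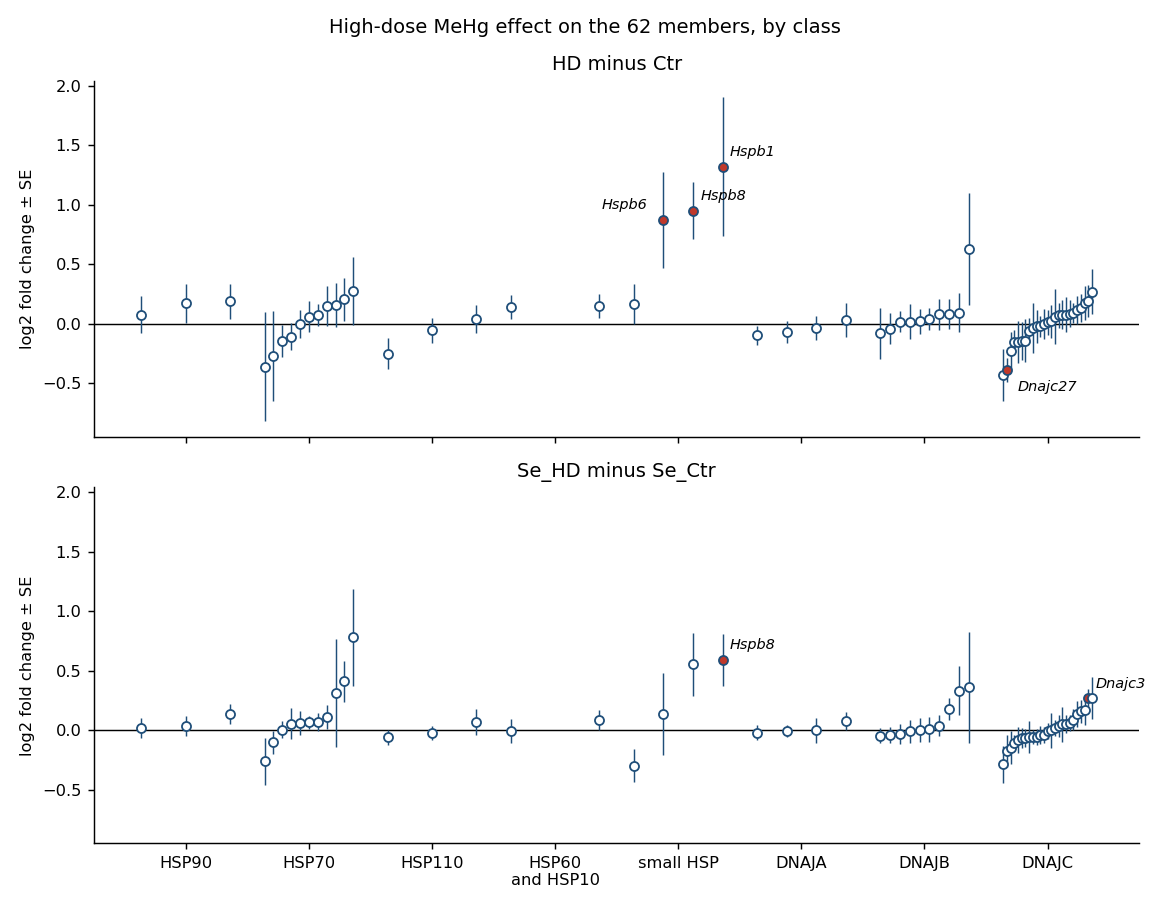
Log2 fold change with its SE for each of the 62 members, by class, in HD against Ctr mice (top) and Se_HD against Se_Ctr mice (bottom), with called members filled in red and named. Most members lie near zero in both panels, and the called members without selenium are Hspb1, Hspb6 and Hspb8 above and Dnajc27 below.

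The low dose gave no call among the members, against 1.46% of genes called in all, and neither edgeR nor DESeq2 called a member. By limma's contrast alone 1 member had an unadjusted p under 0.05, against 3.01% of all genes. It was Dnajc25, with a log2 fold change of -0.46 (SE 0.22, adjusted p = 0.999). Ctr mice had 64.0, 51.1, 45.9, 50.1 and 69.9 normalized counts of it and LD mice 37.8, 63.5, 46.0, 34.8 and 26.7, so the groups overlapped. Next in order of p were Hspa1a at -0.82 (SE 0.46) and Hspa1b at -0.63 (SE 0.38), with p of 0.089 and 0.116. Over the 28 alternative settings they lay between -1.18 and -0.42 and between -1.02 and -0.35. The small heat shock proteins that rose at the high dose were at 0.14 for Hspb8, -0.063 for Hspb1 and -0.32 for Hspb6, with SEs of 0.24, 0.58 and 0.40.

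HD mice were also compared with LD mice, with the same HD libraries as above. Again 4 members were called, against 4.49% of all genes. Hspb8 differed by 0.82 (SE 0.24, exact permutation p = 0.0159) and Hspb6, at 15.6, 17.4, 18.8, 15.5 and 20.8 in LD mice, by 1.19 (SE 0.40, exact permutation p = 0.0159). For both genes 4 of 5 HD mice lay above every LD mouse. Hspb1, at 20.0, 12.4, 10.5, 5.15 and 4.94 in LD mice, differed by 1.38 (SE 0.58, exact permutation p = 0.0556). Dnajc27, at 984, 984, 1113, 989 and 1045 in LD mice, fell by 0.28 (SE 0.10, exact permutation p = 0.0318). By the contrast alone 5 members had a limma p under 0.05, against 6.96% of all genes, the other one being Dnajc3. The lowest limma adjusted p of a member was 0.279, for Hspb8, and DESeq2 passed 1 member, Hspb6, against 0.869% of all genes. When HD library 21 was left out, Hspb8 and Dnajc27 remained called, at 0.61 and -0.20, and Hspb1 and Hspb6 did not, at 0.76 and 0.72. Hspb6 was also lost without HD library 9, and Hspb1 was lost in 18 of 28 alternative settings in all. In the same comparison 11 of 12 microglia and 5 of 10 astrocyte markers rose and 2 of 7 inhibitory neuron markers fell, and their part in these values was not tested.

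The high dose was tested on the selenium diet in the same way. Against Se_Ctr mice, Se_HD mice had higher Dnajc3 and Hspb8, the 2 members called, against 2.06% of all 19679 genes tested. No member passed the adjusted test by limma, edgeR or DESeq2, and 4 members had an unadjusted limma contrast p under 0.05, these 2, Hspa5 and Hspb11, against 4.19% of all genes. Dnajc3 (ENSMUSG00000022136, NCBIM37 chr14:119337154-119380924, plus strand), also called p58IPK, is a co-chaperone of Hspa5 inside the ER. It had 635, 664, 609, 586 and 625 normalized counts in Se_Ctr mice and 862, 656, 695, 758 and 798 in Se_HD mice, of which 4 lay above every Se_Ctr mouse. The log2 fold change was 0.27 with an SE of 0.076 (limma p = 0.00205, adjusted p = 1, exact permutation p = 0.0159), and it was called in all 28 alternative settings.

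Hspb8 had 59.6, 84.5, 67.4, 55.1 and 49.3 normalized counts in Se_Ctr mice and 95.4, 73.2, 94.4, 85.9 and 129 in Se_HD mice, and 4 of 5 Se_HD mice lay above every Se_Ctr mouse. Its log2 fold change was 0.59 with an SE of 0.22 (limma p = 0.0133, adjusted p = 1, exact permutation p = 0.0159). The call was lost without Se_HD library 30, the highest of its group. The other small heat shock proteins were not called on this diet. Hspb1 stood at 0.14 (SE 0.35), Hspb6 at 0.55 (SE 0.27) and Hspb11 at -0.30 (SE 0.14). For Hspb6 4 of 5 Se_HD mice lay above every Se_Ctr mouse (exact permutation p = 0.0318), and for Hspb11 4 of 5 lay below every Se_Ctr mouse (exact permutation p = 0.0238). In these mice the 12 microglia markers had no call, and of the 10 astrocyte markers Gfap alone was called, with a log2 fold change of 0.51. Of the 10 endothelial markers 1 rose. Astrocyte sums lay between 51471 and 54292 in Se_HD and 49558 and 55630.0 normalized counts in Se_Ctr mice.

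The other classes held no call on selenium, and 50 of the 62 members lay within 0.25 of Se_Ctr on the log2 scale. The inducible Hspa1b was spread widely, with 24.8, 81.7, 42.4, 28.1 and 25.1 normalized counts in Se_Ctr mice and 178, 38.1, 28.1, 91.6 and 54.6 in Se_HD mice, which overlapped. It stood at 0.78 (SE 0.41), its near copy Hspa1a at 0.31 (SE 0.45) and its partner Dnajb1 at 0.33 (SE 0.21). Over the 28 alternative settings Hspa1b lay between 0.41 and 1.07, Hspa1a between -0.037 and 0.66 and Dnajb1 between 0.17 and 0.50. The HSP90 genes of the cytosol were at 0.035 for Hsp90aa1 and 0.017 for Hsp90ab1, Hspa8 was at 0.062 and the mitochondrial Hspa9 and Hspd1 were at 0.064 and 0.084.

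Hspa5 (ENSMUSG00000026864, NCBIM37 chr2:34627490-34632051, plus strand) holds unfolded proteins in the ER and keeps the ER stress sensors inactive. Counts of it were 2013, 2268, 2139, 1798 and 1560.1 in Se_Ctr mice and 3544, 1855, 1825, 2761 and 3413 in Se_HD mice, so 3 Se_HD mice lay above every Se_Ctr mouse and 2 lay among them. The log2 fold change was 0.41 with an SE of 0.17 (limma p = 0.0282, exact permutation p = 0.119), but the F test over the 3 selenium groups had p = 0.0805, so it was not called by limma, although edgeR called it, and limma did when Se_HD library 12 or 18 was left out. Its ER partner Hsp90b1 had 2991 ± 259 (SD, n = 5) normalized counts in Se_Ctr and 3300.1 ± 452 (SD, n = 5) in Se_HD mice and was not called (limma adjusted p = 1), and its exons overlap a gene on the other strand by 415 bases. The ER J-domain proteins Dnajb9 and Dnajb11 were at 0.037 and -0.035, with SEs of 0.086 and 0.084. In HD against Ctr mice without selenium, Dnajc3 stood at 0.18 (SE 0.14), or 0.091 without HD library 21, and Hspa5 at 0.21 (SE 0.18), neither called. Hsp90b1 stood at 0.19 and 0.14 without and with selenium, so all 3 members with an ERSE in the window were above zero on both diets. Of all 62 members, 62.9% were above zero without selenium and 56.5% with it. The 3 signs are not independent, since Hspa5 varied with both Dnajc3 and Hsp90b1 from mouse to mouse, as given below. Of these 3 genes Dnajc3 alone was called, on selenium.

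**Figure D4:**
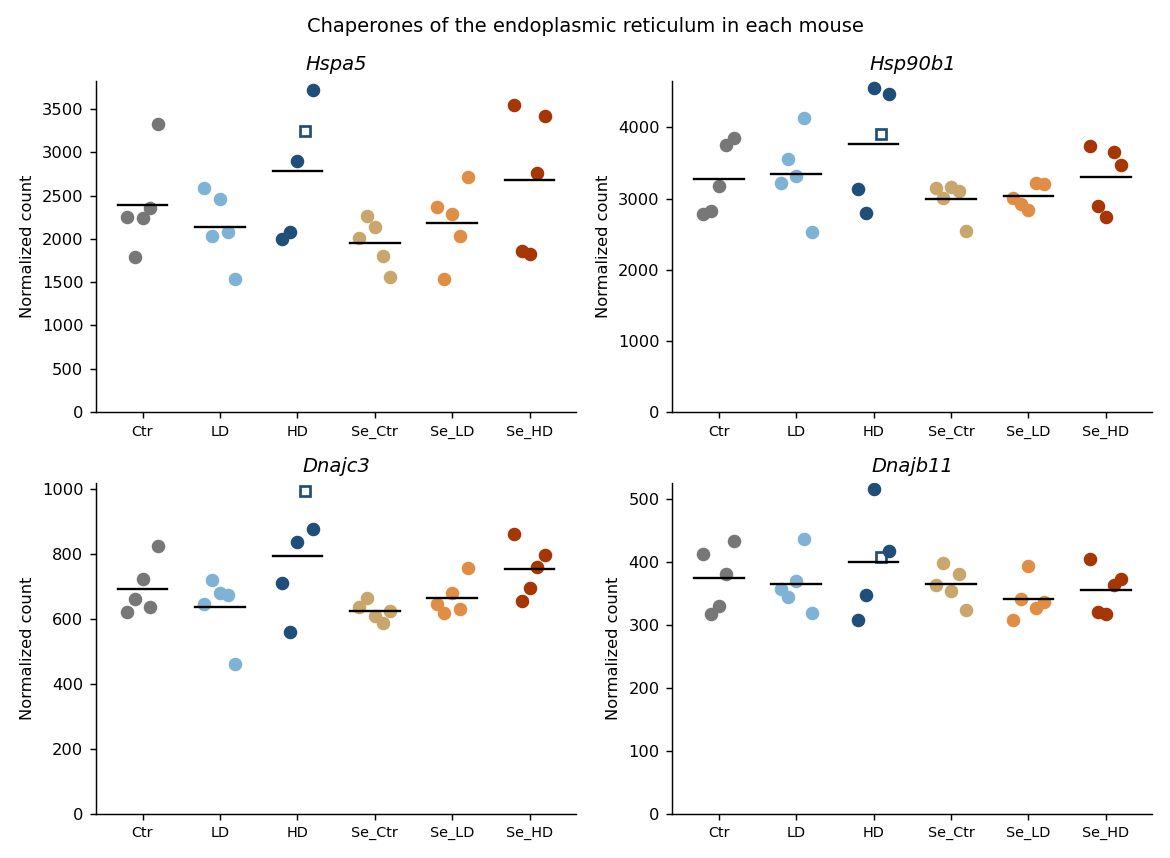
Normalized counts (linear scale) of Hspa5, Hsp90b1, Dnajc3 and Dnajb11 in each mouse of the 6 groups, with a black line at the group mean and HD library 21 as an open square. For Dnajc3 the mean is 624 in Se_Ctr and 754 in Se_HD mice, and for Hspa5 the Se_HD mice spread from 1825 to 3544.

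The low dose on selenium gave no call among the members against 1.46% of all genes, and none by edgeR or DESeq2. By the contrast alone limma had 1 member, against 3.31% of all genes. It was Dnajc24, which takes part in making diphthamide, at 0.37 (SE 0.18, adjusted p = 1). Hspb11 stood at -0.27 and Dnajb9 at -0.16, with p of 0.0624 and 0.0729. Dnaja2, a cytosolic J-domain protein named here after its values were seen, was the 1 member without overlap between Se_LD and Se_Ctr mice, against 0.503% of all genes. It had 1541 ± 29.1 (SD, n = 5) normalized counts in Se_Ctr and 1443 ± 37.4 (SD, n = 5) in Se_LD mice and was not called (limma adjusted p = 1). Dnajc24 overlaps the exons of a gene on the other strand by 84 bases.

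Selenium alone was tested in Se_Ctr against Ctr mice, in a fit over all 30 libraries and 21383 genes. No member was called, against 1.3% of all genes, nor by edgeR or DESeq2, and 4 had an unadjusted contrast p under 0.05 in limma, against 4.0% of all genes, with all adjusted p at 1. Hspa1b had 179, 76.7, 27.2, 89.8 and 118 normalized counts in Ctr mice and 24.8, 81.7, 42.4, 28.1 and 25.1 in Se_Ctr mice. It was spread widely in both groups, and its log2 difference was -1.18 (SE 0.43, exact permutation p = 0.0714). Hspb11 had 49.5, 55.0, 66.4, 55.7 and 67.6 in Ctr mice and 73.6, 74.1, 68.3, 101 and 70.8 in Se_Ctr mice, with every Se_Ctr mouse above every Ctr mouse, a separation in either direction that 0.73% of all genes also had. Its log2 difference was 0.39 (SE 0.15, exact permutation p = 0.00794), but the F test over the 6 groups had p = 0.134. The other 2 were Dnajc16 at 0.15 (SE 0.071) and Dnajb1 at -0.48 (SE 0.23), which starts the ATP cycle of HSP70.

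At the low dose, Se_LD against LD mice gave no call either, against 0.73% of all genes, and none by edgeR or DESeq2. By the contrast alone limma had 1 member, against 2.86% of all genes. It was Dnajc7, which has binding sites for both HSP70 and HSP90. LD mice had 1628, 1690.0, 1621, 1829 and 1868 normalized counts of it and Se_LD mice 1479, 1558, 1552, 1516 and 1388, all of them below the LD mice, as 0.355% of all genes were apart in either direction. The log2 difference was -0.20 (SE 0.087, adjusted p = 1, exact permutation p = 0.00794). Dnaja1 stood at -0.16 and Dnajc14, which assists the ER export of receptors, at 0.17, with p of 0.0843 and 0.0659. Exons of Dnajc7, Dnaja1 and Dnajc14 overlap those of genes on the other strand by up to 287, 608 and 1559 bases.

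At the high dose, Se_HD was set against HD mice. Here 3 members were called, against 3.59% of all genes, with Hspb6 and Hspb8 lower and Dnajc27 higher on selenium. Hspb6 had 18.0, 27.4, 20.9, 26.4 and 13.7 normalized counts in Se_HD mice, and its log2 difference from HD mice was -0.96 (SE 0.36, limma adjusted p = 0.398, exact permutation p = 0.0635). That of Hspb8 was -0.58 (SE 0.24, exact permutation p = 0.0635), and 4 of 5 Se_HD mice lay below every HD mouse. Dnajc27 had 975, 1094, 1090.4, 830.1 and 997 in Se_HD mice and differed by 0.23 (SE 0.092, exact permutation p = 0.0952), so that none of the 3 had an exact p under 0.05. No member passed the adjusted test by limma or edgeR, whereas DESeq2 passed 2, Hspb1 and Hspb6, against 1.05% of all genes, and by the limma contrast alone 7 had p under 0.05, against 8.38%. Hspb1 differed by -1.26 (SE 0.51, limma p = 0.0193, exact permutation p = 0.0794) and was not called because the limma F test had p = 0.0547, although edgeR, DESeq2 and limma with the library set as a covariate called it. Once HD library 21 was left out limma called no member. The log2 differences were then -0.49 for Hspb6, -0.38 for Hspb8, 0.15 for Dnajc27 and -0.63 for Hspb1. The edgeR and DESeq2 fits were not run without that library. Without Se_HD library 12 the limma calls of Hspb8 and Dnajc27 were lost. In the same comparison 11 of 12 microglia and 5 of 10 astrocyte markers were lower and 1 of 7 inhibitory neuron markers was higher in Se_HD than in HD mice, and their part in these values was not tested.

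Whether the effect of the high dose differed between the diets was tested with the interaction term. Dnajc27 was the 1 member called, against 2.38% of all genes. Its HD effect was -0.39 without selenium and -0.067 with it, and the difference was 0.32 (SE 0.13, limma adjusted p = 0.997). It was 0.24 without HD library 21 (limma adjusted p = 0.999), and the call was lost. For Hspb8 the difference between the diets was -0.36 (SE 0.34) and for Dnajc3 it was 0.089 (SE 0.17), neither past the test, and without HD library 21 these were -0.16 and 0.18. The next lowest p were those of Dnajc17 at -0.56 and Hspb11 at -0.47, which were not called, so that 3 members had p under 0.05 by the contrast alone, against 4.77% of all genes. DESeq2 called 2 members, Dnajc27 and Hspb1, against 2.57% of all genes, and was not run without HD library 21. Of the markers, 11 of 12 for microglia and 3 of 10 for astrocytes had a lower and 1 of 7 for inhibitory neurons a higher HD effect on selenium.

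Averaged over both diets, the high dose gave 4 calls among the members, against 4.21% of all genes. Hspb8 rose by 0.77 (SE 0.17) and was the 1 member past the adjusted test over all genes (limma adjusted p = 0.0407), against 0.21% of all genes, with 8 of the 10 exposed mice above every control of their own diet. Hspb6 stood at 0.71 (SE 0.25), Dnajc27 at -0.23 (SE 0.065) and Dnajc3 at 0.22 (SE 0.084), a call that was lost in 25 of 42 alternative settings. It was lost with the library set as a covariate, and without HD library 21, where the log2 fold change was 0.18. The limma adjusted p of Hspb8 was 0.0906 without HD library 21, 0.0591 with a covariate for the library set and 0.0894 with one for the choroid plexus score, and adjusted p ranged from 0.00419 to 0.104 over all settings and tools. Of the markers, 11 of 12 for microglia and 4 of 10 for astrocytes rose and 2 of 7 for inhibitory neurons fell in this contrast. Averaged over the doses, selenium gave 2 calls against 2.3% of all genes, with Hspb6 at -0.58 (SE 0.21) and Hspb8 at -0.37 (SE 0.14), and adjusted p of 0.675 and 0.688. By the contrast alone 5 members had p under 0.05, against 6.62% of all genes, and 7 of 12 microglia and 5 of 10 astrocyte markers were called lower, whose part in these values was not tested. Next by p was Hspa12a, a distant HSP70 relative, at 0.15 (SE 0.064), not called. In the F test over the 6 groups, 1 member, Hspb8, passed an adjusted p of 0.05 (limma adjusted p = 0.0499), against 0.444% of all genes, and it missed that threshold in 24 of the 30 fits with 1 mouse left out, that without HD library 21 among them. By edgeR 3 members passed it, Hspb1, Hspb6 and Hspb8, against 1.4% of all genes, and by DESeq2 the same 3, against 2.07%. Hspb1 did not pass it by limma (limma adjusted p = 0.738), where the unadjusted p was 0.0547 with HD library 21, which stood apart at 153, and 0.455 without it, whereas edgeR and DESeq2 were not run without that library.

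Among the members that differed most between mice of the same group were Hspb1, Hspa1a, Dnajb13, Hspa1b, Hspb6, Hspb8 and Dnajb1. Where the mean reached 50 normalized counts, the SD of log2 values within groups had a median of 0.182 over 55 members and 0.189 over all 11097 such genes. This SD was 0.775 for Hspa1b, 0.416 for Hspb8, 0.414 for Dnajb1 and 0.342 for Hspa5, against 0.0906 for the mitochondrial Hspa9. Hspa1b ranged from 28.1 to 178 normalized counts within the Se_HD group alone, and Dnajb1 from 250.1 to 629 in Ctr mice. Hspb1 at 0.883, Hspa1a at 0.865, Dnajb13 at 0.851 and Hspb6 at 0.599 had means under 50, where counting error is larger. The SDs of Hspb1 and Hspb6 also hold HD library 21, at 153 for both genes. The part of either in this spread was not tested. Lists that follow handling or the hour of death were counted beside these genes in HD against Ctr mice. None of 11 immediate early genes was called (2 had an unadjusted limma contrast p under 0.05), nor either of 2 cold-inducible genes, 2 of 13 clock genes fell, and of 6 glucocorticoid targets 1 rose and 1 fell. In Se_HD against Se_Ctr mice 1 immediate early gene fell and 1 glucocorticoid target rose. The immediate early genes summed to 9594.5 normalized counts in Ctr library 1, the highest of all 30 libraries, and to 1487.1 in Ctr library 13, the lowest. Those are also the Ctr mice with the highest and the lowest Hspa1b, at 179 and 27.2, whereas the Se_HD mouse with 178 had an immediate early gene sum of 4630.4, among the sums between 3596 and 6030.1 in its group. That mouse, library 6, had the highest glucocorticoid target sum of all 30 libraries, at 2595.3. Ctr libraries 1 and 13 had 2029.7 and 1573.9, within the Ctr sums between 1534.7 and 2308.0. The part of these lists in the spread of the inducible chaperones was not tested.

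Some chaperones of the same compartment varied together from mouse to mouse. Correlations were computed for 14 pairs over 30 mice, after taking each group's mean from the log2 values, with permutations within groups and Benjamini-Hochberg adjustment over the 14 pairs. Hspa1b and Dnajb1 had r = 0.92 and rho = 0.87 (permutation p = 1e-05 and 2e-05, adjusted p = 7e-05 and 9.33e-05), and r = 0.90 without the 2 mice farthest from the median of Hspa1b. The first permutation p is the smallest that 100000 permutations can give. Hspa1b and Hspa1a had r = 0.89, rho = 0.79 and r = 0.86 without the 2 mice (adjusted permutation p = 7e-05 and 9.33e-05), and reads shared between these copies can add to it. Hsph1, another HSF1 target, was tied to Hspa1b more loosely (r = 0.54, rho = 0.49, adjusted permutation p = 0.0249 and 0.0363), and r was 0.39 without the 2 mice.

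With Hspa1b the constitutive Hspa8 had r = 0.35 and rho = 0.37 (adjusted permutation p = 0.115 and 0.1), Hsp90aa1 had r = 0.13 and rho = 0.16 (adjusted permutation p = 0.504 and 0.538), and Hspb1 had r = 0.28 and rho = 0.31 (adjusted permutation p = 0.183 and 0.158). None of these 3 passed. In the ER, Hspa5 went with Dnajc3 (r = 0.75, rho = 0.78, adjusted permutation p = 0.00014 and 9.33e-05), with Hsp90b1 (r = 0.72, rho = 0.65, adjusted permutation p = 0.000525 and 0.00322) and with Dnajb11 (r = 0.63, rho = 0.61, adjusted permutation p = 0.003 and 0.00358). Without the 2 mice farthest in Hspa5 these r were 0.76, 0.72 and 0.64. Dnajb9, also an ER co-chaperone, had r = 0.18 and rho = 0.13 with Hspa5 (adjusted permutation p = 0.409 and 0.606) and did not pass.

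The chaperonin partners Hspd1 and Hspe1 had r = 0.57, rho = 0.61 and r = 0.61 without the 2 farthest mice (adjusted permutation p = 0.00756 and 0.00383). The small heat shock proteins were not tied to each other in this way. Hspb1 and Hspb8 had r = 0.47 and rho = 0.36 (adjusted permutation p = 0.0561 and 0.12), Hspb1 and Hspb6 had r = 0.39 and rho = 0.0336 (adjusted permutation p = 0.219 and 0.877), and Hspb6 and Hspb8 had r = 0.35 and rho = 0.075 (adjusted permutation p = 0.183 and 0.781). Without the 2 farthest mice, HD library 21 among them, these r were 0.43, -0.10 and 0.0186.

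**Figure D5:**
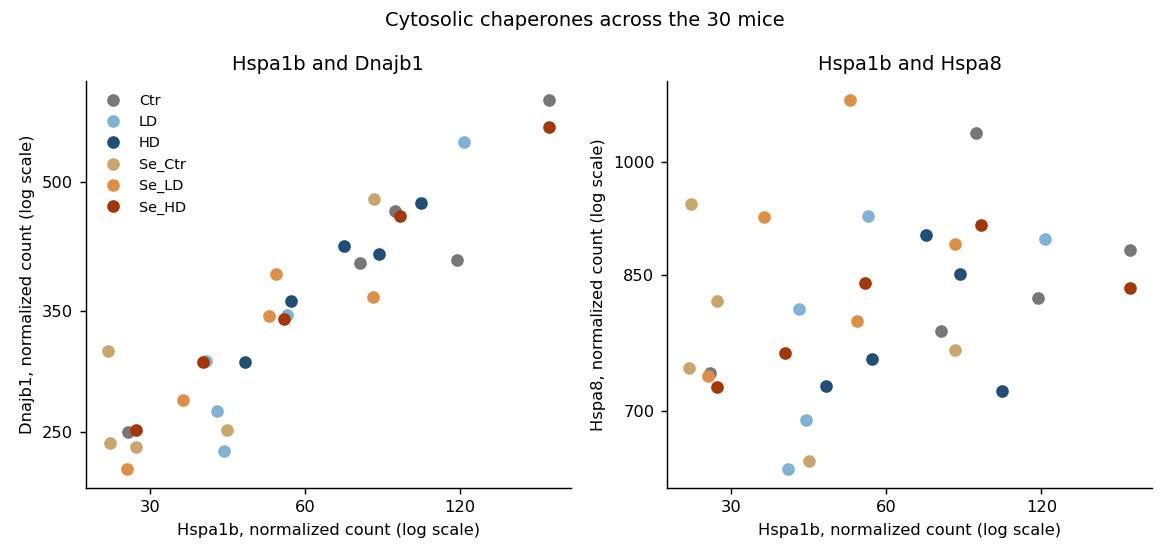
Normalized counts (log scales) of Dnajb1 (left) and Hspa8 (right) against Hspa1b in the 30 mice, coloured by group. Dnajb1 follows Hspa1b across mice of every group, with r = 0.92 after removing group means, while Hspa8 follows it less, with r = 0.35.

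Other genes of the same machinery were counted from lists. None of the 4 heat shock factor genes was called by limma in HD against Ctr or in Se_HD against Se_Ctr mice, and Hsf1 stood at -0.18 and -0.14. None of the 29 co-chaperones of HSP70 and HSP90 was called by limma in either comparison, with medians of -0.025 and 0.018, and 1 gene in each had an unadjusted contrast p under 0.05. Bag3, the partner of Hspb8, stood at 0.20 in HD mice (limma adjusted p = 0.871). Among 15 other chaperones 1 rose in each comparison. In HD mice it was Cryab, a small heat shock protein of glia and lens, with 444, 435, 389.6, 528 and 398 normalized counts in Ctr and 474, 501, 566, 587 and 732 in HD mice and a log2 fold change of 0.37 (limma adjusted p = 0.364). In Se_HD mice it was Serpinh1, the collagen chaperone of the ER, at 0.53 (limma adjusted p = 1).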

How the data were processed

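Hippocampus RNA of 30 male mice was sequenced by the authors from TruSeq Stranded libraries. Per the paper's methods and the submitters' processing notes, the authors trimmed reads with Trim Galore 0.4.2, aligned them with HISAT2 to NCBIM37, counted them per gene with featureCounts, removed genes with few reads and deposited the counts divided by DESeq2 size factors. These deposited values are treated as a signal, not as raw counts. The strand setting of the counting is not given in the sources used here.

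From these values whole reads were recovered (100% of values within 0.01 read of a whole number), which gave the depth. Symbols and NCBIM37 positions were found for 21326 of 21412 identifiers. The main test was limma 3.58.1 (R 4.3.3) with a trend on log2(normalized count + 1), for genes with a sum of at least 10, fitted over Ctr, LD and HD, over the 3 selenium groups, or over all 30 libraries for contrasts between diets, with Benjamini-Hochberg adjustment over all genes tested. A call needed an unadjusted p under 0.05 in the F test and in the contrast. Single genes were also tested with exact two-sided permutation tests of the 5 against 5 values. On the recovered reads edgeR 4.0.16 (quasi-likelihood) called 1172 genes in HD against Ctr mice, 45 of them after adjustment, and DESeq2 1.42.0 was run as a further alternative. The limma, edgeR and DESeq2 fits over Ctr, LD and HD were tested on simulated data for HD against Ctr, and the other fits were not.

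The genes named were fixed anchors of each class, all members called, and the 3 members with the lowest p of each comparison. Dnaja2, Dnaja3, Dnajb11, Dnajb13 and Hspa4l were named outside this rule. Members, gene lists and tests were chosen with earlier results of these data known. Alternatives were other pseudocounts, filters, normalizations, tools, a library set or choroid plexus covariate, and leaving out each mouse.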

Additional observations from a re-analysis of the deposited data

Results flagged for a closer look

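Among the 34 named genes, 13 of 204 groups of 5 mice (6.37%) held a mouse whose gap to the nearest other mouse was over 0.71 of the group's range, where chance gives about 5%. HD library 21 was the highest HD mouse for Hspb1 at 153 normalized counts (the others from 11.3 to 22.9) and for Hspb6 at 153 (the others from 20.1 to 46.7). LD library 2 was highest in its group for both inducible HSP70 genes, with 51.1 normalized counts of Hspa1a (others 11.2 to 20.9) and 122 of Hspa1b (others 38.6 to 55.4). Se_Ctr library 10 held 51.3 of Hspa1a (others 9.86 to 19.9). Dnajb2 reached 498 in HD library 15 (others 282 to 338), and Hspb11 reached 101 in Se_Ctr library 22 (others 68.3 to 74.1).

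The remaining mice lay below their groups. Dnajc16 was at 646 in HD library 9 (others 735 to 765) and Dnajc3 at 459.7 in LD library 26 (others 644 to 718). In Se_LD mice, Dnajc17 was at 48.8 in library 23 (others 64.3 to 66.8), Dnajc27 at 945 in library 11 (others 1101 to 1157) and Hspa4 at 2781 in library 29 (others 3047 to 3112). Hsp90b1 was at 2541 in Se_Ctr library 28 (others 3002 to 3165). The effect of the high dose on Dnajc27 differed between the diets by 0.32 on the log2 scale in the interaction test, a difference that was not past the threshold without HD library 21.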

How the results depend on the processing

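Of the 43 settings other than the reported one, 30 left out a mouse. With 1 mouse left out, the number of members called ranged from 2 to 4 for HD against Ctr (2 without HD library 21 or Ctr library 25), 0 to 2 for LD against Ctr (2 without LD library 2 or Ctr library 13, 1 without LD library 8) and 2 to 5 for HD against LD (2 without HD library 21). It ranged from 1 to 5 for Se_HD against Se_Ctr (5 without Se_HD library 18, 1 without Se_HD library 30) and 0 to 1 for Se_LD against Se_Ctr (1 without Se_LD library 5, 17 or 23 or Se_Ctr library 28). Between diets it ranged from 0 to 2 for Se_Ctr against Ctr (2 without Ctr library 13, 1 without Se_Ctr library 10 or HD library 21), 0 to 1 for Se_LD against LD (1 without Se_LD library 29) and 0 to 5 for Se_HD against HD (5 without HD library 9, 1 without Se_HD library 12, 0 without HD library 21). It ranged from 0 to 2 for the interaction (2 without Ctr library 1 or 13, LD library 8 or Se_Ctr library 10, 0 without HD library 21), 3 to 6 for the high dose over both diets, 2 to 3 for selenium over the doses and 0 to 1 for the F test over 6 groups (0 in 24 of 30 fits). HD against Ctr gave 2 members with quantile normalization and 2 with limma without a trend.

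With the contrast alone, without the F test, more of all genes passed too (between 2.86% and 8.38% over these comparisons), and the members' counts were 1 for LD against Ctr, 4 for Se_HD against Se_Ctr, 1 for Se_LD against Se_Ctr, 4 for Se_Ctr against Ctr, 1 for Se_LD against LD, 7 for Se_HD against HD, 3 for the interaction and 5 for selenium over the doses. DESeq2 gave 2 in the interaction. The choroid plexus score as a covariate, an alternative chosen after seeing the data, gave 4 in Se_HD against Se_Ctr. The adjusted F test over 6 groups gave 0 members with a pseudocount of 0.1 or 10, with a filter on a mean of 10 normalized counts, with a covariate for the library set or the choroid plexus score and without a trend, against 3 with edgeR and 3 with DESeq2. Apart from the mice left out and the F test dropped, the cause of these moves was not tested. No named gene past the test changed direction in any setting, and the largest shift of the median of all genes was 0.0255 on the log2 scale. The replicate numbers only name mice and pair none. The library numbers form 5 sets of 6 with 1 mouse of each group, and with the set as a covariate the number of members called stayed within 1.5 times in every contrast, while the adjusted p of Hspb8 for the high dose over both diets became 0.0591. Depth limits the low members, since Hspb1 and Hspb6 rested on few reads in most mice.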
